A study of Mus musculus with 50 samples.

Results

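The genes of fatty acid uptake and oxidation were described in the left ventricle of mice that overexpress the RNA-binding protein LARP6 in heart muscle cells and of their wild-type littermates, with and without infusion of the pressor hormone angiotensin II (Ang II). The group was defined as 34 genes chosen by function and found by symbol in the deposited gene table, which listed 35717 genes. Earlier results of these data were known when the group was chosen. All 34 were found, and all 34 were among the 11628 genes with enough signal to be tested. They were ordered by step into 4 genes of uptake, 4 of activation and thioesterases, 5 of the carnitine shuttle, 13 of beta oxidation, 3 of electron transfer and 5 of regulation and uncoupling.

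Poly(A) RNA was sequenced from 50 hearts, each taken as 1 animal. All mice were C57BL/6J and 40 weeks old, and tissue was taken after 21 days of saline or of Ang II at 1000 ng per kg per minute. The 4 groups were wild-type mice given saline (WT saline, n = 11), wild-type mice given Ang II (WT Ang II, n = 14), LARP6 transgenic mice given saline (Tg saline, n = 12) and LARP6 transgenic mice given Ang II (Tg Ang II, n = 13), with females and males in each. The transgene was described as specific to cardiomyocytes, but the promoter that drives it is not given in the sources used here, nor is it stated whether the line descends from 1 founder.

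The adult heart draws most of its energy from long-chain fatty acids. These are freed from lipoproteins at the vessel wall, taken into the muscle cell, joined to coenzyme A, carried into the mitochondrion as carnitine esters and shortened in repeated turns of beta oxidation, whose electrons pass through the electron transfer flavoprotein to the respiratory chain. The nuclear receptor PPARα, with its partner RXR and the coactivator PGC-1α, is known to drive transcription of many of these enzymes, and a loaded or failing heart is known for lower levels of them.

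Levels are the authors' FPKM values (fragment numbers divided by transcript length and by library depth) after a further scaling of each library. They are called scaled FPKM here. Comparing them between genes rests on the authors' handling of transcript length, which was not checked. In WT saline, Echs1 had a mean of 13952 counts at 25.1 scaled FPKM, and Eci1 10173 counts at 70.8. Differences are given on the log2 scale with their standard error (SE), from the quasi-likelihood test of edgeR on the deposited counts. The p values were adjusted by the Benjamini-Hochberg method over all genes tested, and a change was called where the adjusted p was under 0.05. Total counts were 53877400 to 91579300 per library, and the least abundant member by counts, Acot1, had a mean of 701 counts per library, where the coefficient of variation from counting is 3.78%. Larp6 separated the genotypes in every library but 1. Tg libraries lay between 444 and 1631 scaled FPKM and WT libraries at up to 63.7, except library 329, labelled WT Ang II, at 1004. For library 329 and for library 847, labelled Tg Ang II, the letters in the table's column name also gave the other genotype. Both were kept under their labels, and the number of members called is given without them where it changed. Library 965 of the Tg saline group also stood apart: its FPKM scaling factor was 0.832 of its count scaling factor, where this ratio was 0.99 to 1.02 in the other libraries, and it held the highest Fabp3 level of all.

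In WT saline hearts the members spanned a wide range of levels per unit of transcript length. Fabp3, the fatty acid binding protein of the muscle cytosol, led with 1938 ± 208 scaled FPKM (SD, n = 11). Ech1 (427 ± 34.8) and Acaa2 (394 ± 31.3), enzymes of beta oxidation, came next, followed by the uptake genes Cd36 (362 ± 30.7) and Lpl (352 ± 28.1) and by Acadl (346 ± 21.4). Neighbours among Cd36, Lpl and Acadl differed by less than 1 SD. Acot1 (3.93 ± 1.3), Ppara (4.09 ± 1.0) and Cpt1a (5.84 ± 0.76) were the lowest. Hearts of this group differed little in most enzymes, with a coefficient of variation between 4.87% (Etfa) and 13.1% (Cpt1a), but more in Pdk4 (50.8%), Ucp3 (42.5%), Acot1 (33.1%), Ppargc1a (31.6%) and Ppara (24.5%).

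Under saline, the Tg hearts held less mRNA for nearly every enzyme of the pathway than the WT hearts. Of the 34 members, 27 fell and 0 rose, where 20.2% of all genes tested were lower and 20.4% higher, and the members' median log2 fold change was -0.41 against 0.00044 over all genes tested. The estimate was below 0 for 32 members, the exceptions being Acot13 and Pdk4. By step, 13 of 13 genes of beta oxidation fell, 3 of 3 of electron transfer, 4 of 5 of the carnitine shuttle, 3 of 4 of uptake, 3 of 4 of activation and thioesterases, and 1 of 5 of regulation and uncoupling. Counted with DESeq2 or limma-trend the number that fell was also 27. In bulk tissue, fewer cells of a type and less RNA per cell cannot be told apart.

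To set hearts side by side, the median over the 34 members was taken in each heart, each gene as a percentage of its WT saline mean. It ranged from 91.4% to 106% in WT saline (median 99.7%), from 71.6% to 102% in WT Ang II (92.0%), from 63.7% to 87.1% in Tg saline (74.9%) and from 61.2% to 83.7% in Tg Ang II (69.8%). All 12 Tg saline and all 13 Tg Ang II hearts lay below the lowest WT saline heart, and 6 of 14 WT Ang II hearts did. The lowest 5 of the WT Ang II hearts, library 329 among them, lay between 71.6% and 81.6%, and the other 9 between 89.7% and 102%. The low hearts also included libraries 159, 161 and 165, which are close in number, while library 163 lay at 92.1%. Whether this gap goes with library number was not tested.

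**Figure D1:**
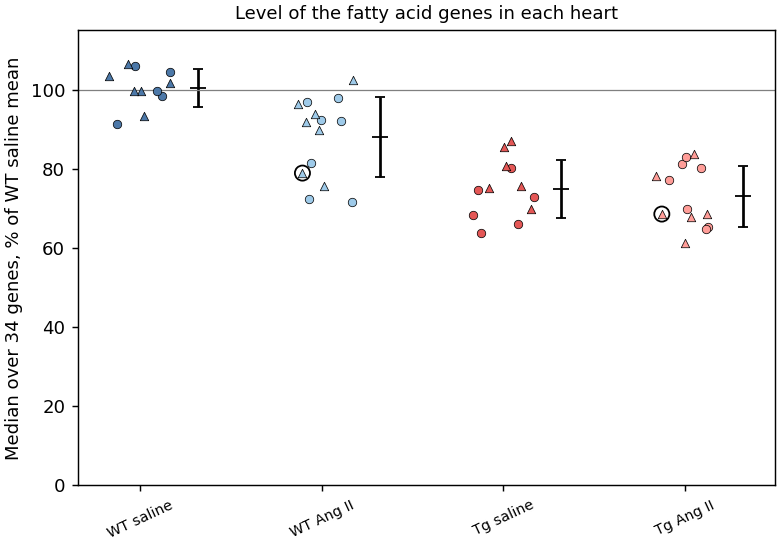
Median over the 34 fatty acid genes in each heart, as a percentage of the WT saline mean of each gene (y axis), by group (x axis). Circles are females, triangles males, large rings libraries 329 and 847, and bars the group mean ± SD. The Tg hearts sit between 61.2% and 87.1%, below every WT saline heart, and the WT Ang II hearts spread from 71.6% to 102%.

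The members' share of all counts scales each library by its total count alone. Genes with many counts weigh most in it, such as Lpl and Fabp3 (means of 248389 and 107938 counts in WT saline). Its median was 1.85% in WT saline, 1.80% in WT Ang II, 1.58% in Tg saline and 1.54% in Tg Ang II. Both Tg medians lay below both WT medians, also without libraries 329 and 847. The order of the Tg groups turned without these libraries, with 1.59% in Tg Ang II.

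Uptake begins with lipoprotein lipase, which frees fatty acids from circulating triglyceride. Lpl (chromosome 8, 68880491 to 68906934, plus strand, GRCm38) ranged from 308 to 393 scaled FPKM in WT saline (median 352), from 322 to 403 in WT Ang II (369), from 222 to 283 in Tg saline (257) and from 240 to 341 in Tg Ang II (262). The Tg saline hearts all lay below the WT saline hearts. The fall was -0.47 ± 0.06 under saline (adjusted p = 1.2e-08) and -0.39 ± 0.05 under Ang II (adjusted p = 1.6e-07). Ang II itself gave 0.06 ± 0.06 in WT (adjusted p = 0.49) and 0.13 ± 0.06 in Tg (adjusted p = 0.13).

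Cd36, the fatty acid translocase of the plasma membrane, ranged from 330 to 408 in WT saline (median 362) and from 247 to 346 in Tg saline (277), and 10 of 12 Tg hearts lay below all WT hearts. The fall was -0.32 ± 0.06 (adjusted p = 7.7e-05). Under Ang II the difference between the genotypes was -0.12 ± 0.06 and did not pass (adjusted p = 0.10). Slc27a1, which encodes the transport protein FATP1, also separated the saline groups completely, with 25 to 32.7 in WT (median 27.8) and 17.4 to 24.9 in Tg (22.1). It fell in Tg under saline (-0.39 ± 0.09, adjusted p = 0.00068) and with Ang II in WT (-0.31 ± 0.09, adjusted p = 0.012). Fabp3 did not pass in either of these comparisons (-0.10 ± 0.07 and 0.10 ± 0.07). The genotype difference of Fabp3 under saline was -0.16 without library 965 (adjusted p = 0.039) and -0.25 in females alone (adjusted p = 0.014), but 0.06 in males alone (adjusted p = 0.77) and 0.03 with scaling by total counts alone (adjusted p = 0.72), so its direction was not settled.

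In the cell, Acsl1, the main long-chain acyl-CoA synthetase of heart, ranged from 49.0 to 78.3 scaled FPKM in WT saline (median 73.8) and from 44.9 to 71.0 in Tg saline (55.9). The groups overlapped, and the difference of -0.32 ± 0.08 passed (adjusted p = 0.0013). Acot1 and Acot2, thioesterases of the cytosol and the mitochondrion that split acyl-CoA, both fell, Acot1 with -1.05 ± 0.19 (adjusted p = 1.6e-05) and Acot2 with -0.44 ± 0.10 (adjusted p = 0.00029). Acot1 had the largest fold change of the 34, from 2.06 to 7.14 scaled FPKM in WT saline (median 3.52) and from 1.08 to 2.58 in Tg saline (2.08). These 2 genes are near-identical neighbours on chromosome 12 (Acot2 at 83987861 to 83993873, Acot1 at 84009490 to 84018371), and how the authors' counting shared fragments between them is not given in the sources used here, so the value of each gene alone is uncertain. Acot13, another mitochondrial thioesterase, stood at 155 scaled FPKM in the median of both saline groups (0.01 ± 0.06).

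The carnitine shuttle carries the acyl group through the mitochondrial membranes. Cpt2, the inner carnitine palmitoyltransferase, ranged from 59.4 to 86.1 in WT saline (median 78.2) and from 44.3 to 65.6 in Tg saline (54.2), with 8 of 12 Tg hearts below all WT hearts (-0.50 ± 0.07, adjusted p = 4.4e-07). Crat, carnitine acetyltransferase, and Slc25a20, the carnitine-acylcarnitine carrier, fell too (-0.48 ± 0.08 and -0.37 ± 0.07). Cpt1b, the muscle form of the outer transferase, ranged from 169 to 199 in WT saline (median 181) and from 139 to 180 in Tg saline (159), and its fall was among the smallest of those called (-0.19 ± 0.05, adjusted p = 0.0029). Cpt1a, the liver form of the same enzyme, did not pass (-0.04 ± 0.09). The median ratio of Cpt1a to Cpt1b levels was 0.0327 in WT saline, 0.0308 in WT Ang II, 0.0365 in Tg saline and 0.0353 in Tg Ang II, so the muscle form prevailed in every group. Of the 4 comparisons of the log2 ratio between groups, Tg Ang II against WT Ang II passed, with a difference of 0.21 (two-sided permutation test with 100000 resamples, adjusted p = 0.027). This call was lost without libraries 329 and 847 (0.18, adjusted p = 0.080), and under saline the difference was 0.14 (adjusted p = 0.29).

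Within beta oxidation all 13 genes fell. Ech1, which prepares fatty acids with certain double bonds for the cycle, ranged from 360 to 469 scaled FPKM in WT saline (median 441), from 212 to 391 in WT Ang II (319), from 172 to 321 in Tg saline (246) and from 145 to 260 in Tg Ang II (213). Every Tg heart lay below every WT saline heart, and 11 of 14 WT Ang II hearts lay below the lowest WT saline heart. The log2 fold change was -0.81 ± 0.09 in Tg under saline (adjusted p = 2.7e-09). Acaa2, the mitochondrial thiolase that ends each turn, ranged from 339 to 441 in WT saline (median 393), from 195 to 358 in WT Ang II (315), from 167 to 310 in Tg saline (236) and from 129 to 247 in Tg Ang II (201). Both Tg groups again lay wholly below WT saline, and the fall under saline was -0.76 ± 0.11 (adjusted p = 1.4e-07).

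The acyl-CoA dehydrogenases, which open the cycle for chains of decreasing length, all fell. Acadm, the medium-chain enzyme, had the lowest estimate (-0.50 ± 0.07, adjusted p = 6.2e-08). It ranged from 188 to 295 scaled FPKM in WT saline (median 238) and from 129 to 199 in Tg saline (171), with 10 of 12 Tg hearts below all WT hearts. The estimate was -0.31 ± 0.06 for Acadvl, the very-long-chain enzyme, -0.29 ± 0.05 for Acads, the short-chain enzyme, and -0.19 ± 0.05 for Acadl, the long-chain enzyme (adjusted p = 0.0018). Whether these falls differ from each other was not tested. When libraries were scaled by their total counts alone, which moved the median of all genes tested to 0.14, Acadl (-0.06, adjusted p = 0.21) and Cpt1b (-0.06, adjusted p = 0.28) did not pass, and the other 25 members did.

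Hadha and Hadhb encode the 2 subunits of the mitochondrial trifunctional protein and lie head to head on chromosome 5, with 85 bases between the annotated genes (Hadha 30118304 to 30155162, minus strand; Hadhb 30155248 to 30184593, plus strand). Both fell, with -0.45 ± 0.07 for Hadha and -0.46 ± 0.06 for Hadhb. Hadha ranged from 110 to 151 in WT saline (median 141) and from 84.0 to 120 in Tg saline (102), and 9 of 12 Tg hearts lay below all WT hearts. Hadh, the medium- and short-chain hydroxyacyl-CoA dehydrogenase, and Echs1, the short-chain enoyl-CoA hydratase, fell as well (-0.54 ± 0.08 and -0.44 ± 0.05). The auxiliary enzymes for unsaturated chains followed, Eci1 (-0.58 ± 0.09), Decr1 (-0.57 ± 0.07) and Eci2 (-0.43 ± 0.06). Echs1 and Eci1 were also wholly lower in Tg saline than in WT saline hearts.

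Electron transfer flavoprotein takes the electrons of the dehydrogenases. Etfb, its beta subunit, ranged from 242 to 338 scaled FPKM in WT saline (median 276), from 177 to 309 in WT Ang II (250), from 159 to 234 in Tg saline (189) and from 141 to 203 in Tg Ang II (170), and both Tg groups lay wholly below WT saline. The fall was -0.55 ± 0.07 (adjusted p = 1.4e-08). Etfa, the alpha subunit, and Etfdh, the dehydrogenase that passes the electrons to ubiquinone, fell too (-0.38 ± 0.05 and -0.43 ± 0.06).

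Complete separation was not limited to these examples. In 8 members every Tg saline heart lay below every WT saline heart (Lpl, Slc27a1, Echs1, Ech1, Eci1, Acaa2, Etfa and Etfb), where 1.43% of all genes tested did so. Tg Ang II hearts lay wholly below WT saline in 14 members, where 2.70% of all genes tested did: Slc27a1, Acadvl, Acadm, Hadha, Hadhb, Hadh, Echs1, Ech1, Eci1, Decr1, Acaa2, Etfa, Etfb and Etfdh. Between WT Ang II and WT saline, Tg Ang II and Tg saline, or Tg Ang II and WT Ang II, 0 members were separated in this way, where 0.043%, 0.0344% and 0.0946% of all genes tested were.

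**Figure D2:**
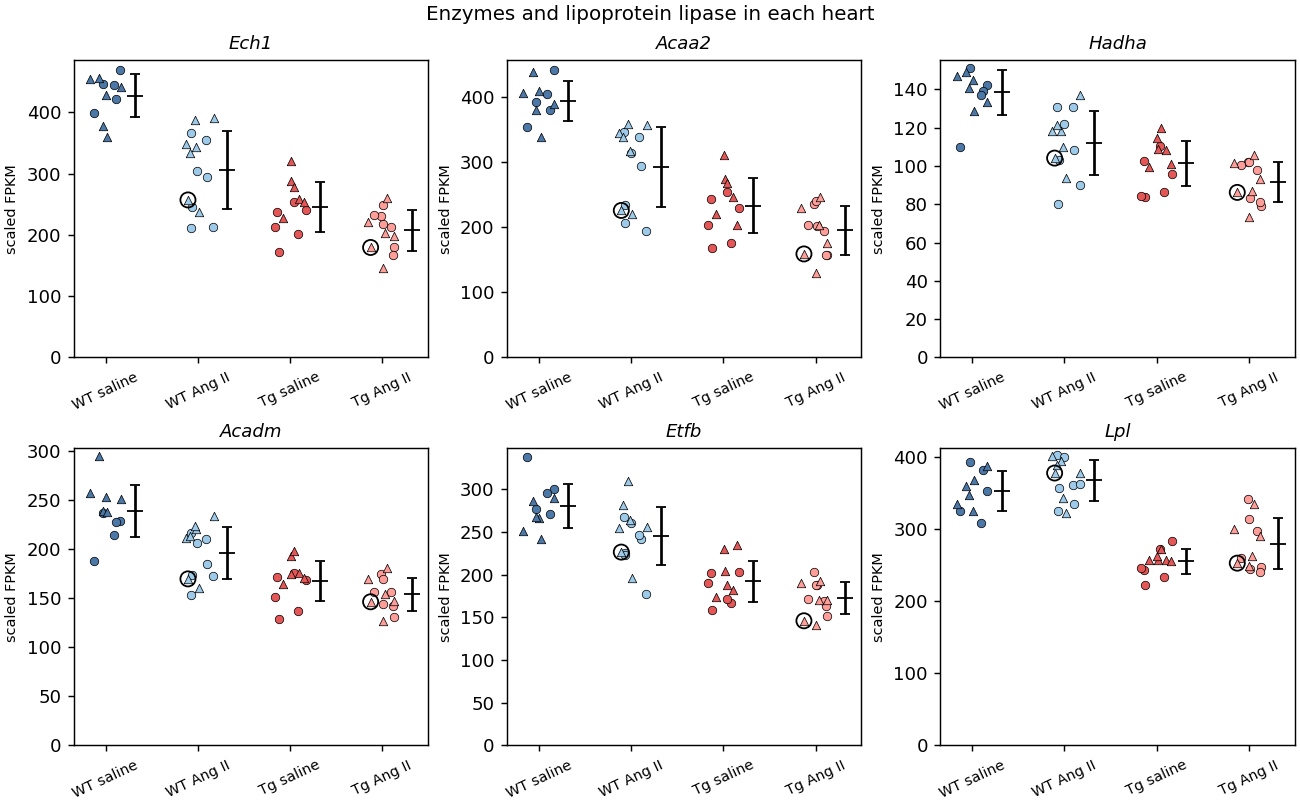
Scaled FPKM (y axis, from 0) of Ech1, Acaa2, Hadha, Acadm, Etfb and Lpl in each heart by group (x axis). Circles are females, triangles males, large rings libraries 329 and 847, and bars the group mean ± SD. The 5 enzyme genes step down from WT saline through WT Ang II to the Tg groups with overlap between neighbours, while Lpl stands at 308 to 403 in WT and 222 to 341 in Tg hearts.

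Of the 5 genes of regulation and uncoupling, Mlycd fell in Tg hearts under saline, and Ppara, Ppargc1a, Pdk4 and Ucp3 did not pass. Whether these genes differ from the enzymes in their change was not tested. Ppara, which encodes PPARα, ranged from 1.76 to 5.42 scaled FPKM in WT saline (median 4.18), from 2.0 to 6.30 in WT Ang II (4.42), from 2.35 to 5.01 in Tg saline (3.53) and from 1.86 to 5.09 in Tg Ang II (3.51). The groups overlapped throughout, and the genotype difference under saline was -0.18 ± 0.17 (adjusted p = 0.41). Ppargc1a, which encodes PGC-1α, gave -0.09 ± 0.15 (adjusted p = 0.68), with medians of 11.8 in WT saline and 11.6 in Tg saline. Both genes varied widely between hearts, so these SE were larger than that of an enzyme such as Hadha (0.07).

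Pdk4, the kinase that turns off pyruvate oxidation when fatty acids are burned, had estimates above 0 in both Ang II comparisons and both genotype comparisons, and passed in none of them. It ranged from 39.4 to 241 scaled FPKM in WT saline (median 127), from 70.1 to 292 in WT Ang II (174), from 57.3 to 314 in Tg saline (135) and from 106 to 358 in Tg Ang II (195), and its largest estimate was 0.49 ± 0.26 for Ang II in WT (adjusted p = 0.19). Ucp3, a mitochondrial carrier of the uncoupling protein family, spread from 4.81 to 31.7 over all hearts (-0.39 ± 0.27 for genotype under saline, adjusted p = 0.25). Mlycd, malonyl-CoA decarboxylase, removes the inhibitor of the outer carnitine palmitoyltransferase and was the member of this step that passed. It ranged from 21.9 to 27.8 in WT saline (median 24.7) and from 16.8 to 23.3 in Tg saline (19.3), a fall of -0.34 ± 0.07 (adjusted p = 0.00015).

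**Figure D3:**
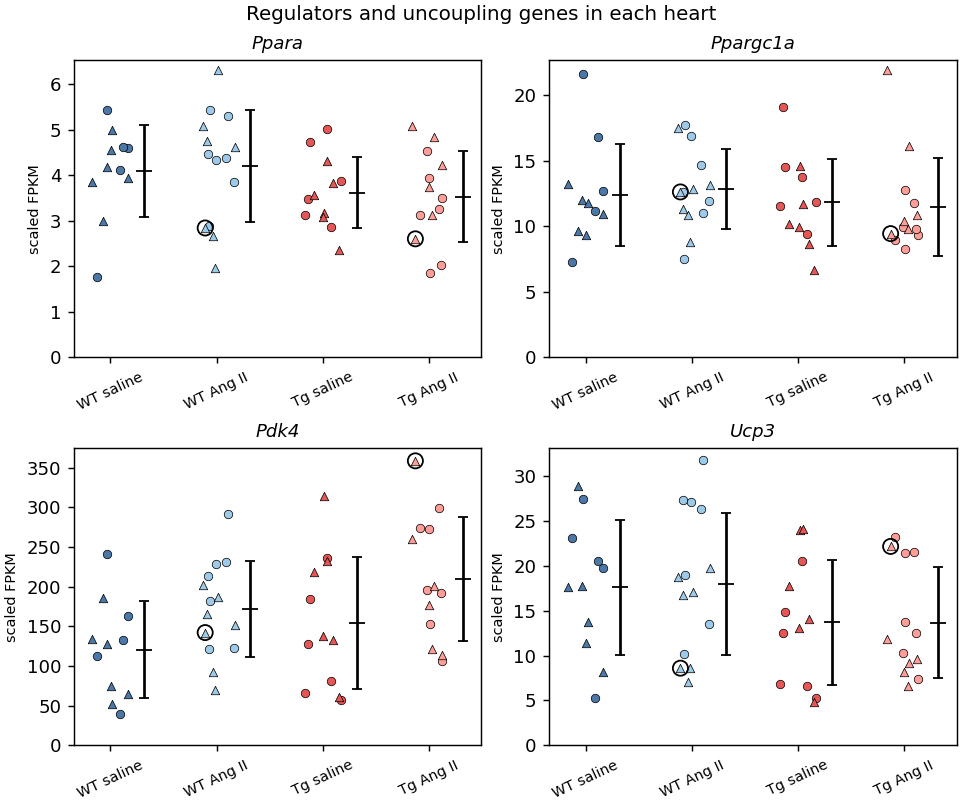
Scaled FPKM (y axis, from 0) of Ppara, Ppargc1a, Pdk4 and Ucp3 in each heart by group (x axis). Circles are females, triangles males, large rings libraries 329 and 847, and bars the group mean ± SD. The groups overlap in all 4 genes, with Pdk4 spread from 39.4 to 358 over all hearts.

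Since many of these genes are known PPARα targets, the 250 bases before each start listed in RefSeq's promoter table (GRCm38.p6) were searched for DR1, the element bound by PPARα with RXR (AGGTCANAGGTCA, at most 2 mismatches over its 12 fixed letters, both strands). A promoter was listed for 28 of the 34 members. DR1 was matched in 4 of these 28 (14.3%) and in 3.72% of all 27025 genes with a promoter in the table. A gene counted if any of its listed promoters matched. The larger set also holds genes without enough signal in these hearts to be tested, and the difference between the shares was not tested. The element TCAAGGTCA, bound by the estrogen-related receptors, was searched with no mismatch and found in 0 of 28 members and in 0.422% of genes. The 4 DR1 matches are printed 5′ to 3′ on the gene's strand with 20 bases on each side and the match in capitals, because they show how far each departs from the element. A match is a description of the letters and not evidence of binding.
Cd36: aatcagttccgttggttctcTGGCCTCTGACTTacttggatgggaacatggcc
Echs1: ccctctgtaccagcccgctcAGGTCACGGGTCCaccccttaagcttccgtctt
Etfa: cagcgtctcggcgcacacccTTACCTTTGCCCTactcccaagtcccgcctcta
Ucp3: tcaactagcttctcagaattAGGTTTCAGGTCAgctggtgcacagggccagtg
Of these 4 genes, Cd36, Echs1 and Etfa fell in Tg hearts under saline and Ucp3 did not pass, where 27 of all 34 members fell. Whether the match goes with the fall was not tested. The Cd36 window lies at chr5:17835927-17835979 (minus strand), the Echs1 window at chr7:140116472-140116524 (minus strand), the Etfa window at chr9:55512288-55512340 (minus strand) and the Ucp3 window at chr7:100472920-100472972 (plus strand). The matches of Cd36 and Etfa read on the strand opposite to the gene. Their 5′ ends on the gene's strand lie 63, 83, 77 and 51 bases before the RefSeq start of Cd36, Echs1, Etfa and Ucp3. That start is not always the 5′ end of the GENCODE M21 gene: it lies 52905 bases inside the annotated gene for Cd36 (17835896 against 17888801), 55 inside for Echs1, 1 inside for Ucp3 and at the same base for Etfa. So the Cd36 window belongs to an internal start, and part of the Echs1 window lies within the annotated gene.

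In WT hearts, members of every step were lower with Ang II than with saline. Of the 34 members, 18 fell and 0 rose, where 8.87% of all genes tested were lower and 9.71% higher, and the median log2 fold change was -0.18. This comparison and the one between the genotypes under saline share the WT saline hearts. By step, 8 of 13 genes of beta oxidation fell, 3 of 3 of electron transfer, 3 of 5 of the carnitine shuttle, 2 of 4 of activation and thioesterases, 1 of 4 of uptake and 1 of 5 of regulation and uncoupling.

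Acot1 (-0.74 ± 0.18, adjusted p = 0.0028), Ech1 (-0.49 ± 0.09, adjusted p = 0.00013) and Acaa2 (-0.43 ± 0.10, adjusted p = 0.0020) had the lowest estimates. Hadha (-0.30 ± 0.07), Hadh (-0.27 ± 0.08), Acadm (-0.27 ± 0.06), Decr1 (-0.25 ± 0.07), Hadhb (-0.24 ± 0.06) and Acot2 (-0.28 ± 0.09) fell too. The electron transfer genes fell by similar amounts, with estimates of -0.21 ± 0.05 for Etfa, -0.20 ± 0.07 for Etfb and -0.20 ± 0.06 for Etfdh. Cpt2 (-0.23 ± 0.07), Slc25a20 (-0.27 ± 0.07) and Mlycd (-0.22 ± 0.07) also fell. Cpt1b (-0.10 ± 0.05, adjusted p = 0.15), Eci1 (-0.16 ± 0.08, adjusted p = 0.17), Cd36 (-0.15 ± 0.06, adjusted p = 0.083) and Echs1 (-0.11 ± 0.05, adjusted p = 0.12) did not pass. Without library 329 the count was 16, since Acadvl (-0.15, adjusted p = 0.054) and Crat (-0.19, adjusted p = 0.078) were lost. The count was 11 when all 35717 genes were tested with no FPKM minimum (2.46% of them lower), and 5 in females alone (2.38% of all genes lower) and 2 in males alone (2.18%).

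Ech1 had an SD of 63.4 scaled FPKM around 306 in WT Ang II (64.4 around 310.1 without library 329) and of 34.8 around 427 in WT saline. The difference in spread was not tested. Whether hearts with more load held less Ech1 was examined with Nppa, the natriuretic peptide gene that a loaded ventricle switches on, within each group and for Ech1, Hadha and Ppargc1a, which made 12 relations. None passed after adjustment. For Ech1 in WT Ang II, Pearson's r was -0.56 (permutation p = 0.037, adjusted p = 0.097) and Spearman's rho -0.48 (p = 0.088, adjusted p = 0.18), and r was -0.54 without the 2 hearts farthest from the median of Nppa. Without library 329, r was -0.56, and -0.34 when the 2 farthest of the remaining hearts were left out. The strongest relation by r was Ech1 in Tg saline, with r = -0.74 (permutation p = 0.0050, adjusted p = 0.060), rho = -0.71 (p = 0.012, adjusted p = 0.070) and r = -0.76 without the 2 farthest hearts. Hadha in Tg saline gave r = -0.71 (permutation p = 0.011, adjusted p = 0.065) and rho = -0.63 (p = 0.033, adjusted p = 0.13). For Hadha in WT Ang II, r was -0.57 (permutation p = 0.031, adjusted p = 0.097) and rho -0.69 (p = 0.0076, adjusted p = 0.070). In Tg Ang II the relation rested on the 2 farthest hearts, since r went from -0.55 to -0.21 without them for Ech1 and from -0.49 to -0.20 for Hadha. On FPKM as deposited, r for Ech1 in Tg saline was -0.78 (adjusted p = 0.037).

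In Tg hearts, Ang II gave 0 members called in either direction by edgeR, DESeq2 or limma-trend, where 4.04% of all genes tested were lower and 4.88% higher. The median log2 fold change was -0.03, and 7 of 34 members had an unadjusted p under 0.05, where 23.4% of all genes tested did. The lowest estimates were -0.25 ± 0.10 for Acaa2 (adjusted p = 0.11) and -0.24 ± 0.09 for Ech1 (adjusted p = 0.084). The Ech1 ranges of 172 to 321 in Tg saline and 145 to 260 in Tg Ang II overlapped, and 11 of 13 Tg Ang II hearts lay below the Tg saline median. Pdk4 gave 0.47 ± 0.26 (adjusted p = 0.27).

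The difference between the 2 Ang II effects was tested itself. Over the members it had a median of 0.12 (Tg minus WT), 28 of 34 estimates above 0 and 0 members called by edgeR, DESeq2 or limma-trend, where 5 of 11628 genes were called (0.043%). An unadjusted p under 0.05 was found for 6 members and for 9.77% of all genes tested. With DESeq2 the number of members was also 6 (1159 of 11628 genes). It was 2 without libraries 329 and 847 (934 genes) and 0 with a term for runs of library numbers (596 genes). The smallest p among members was that of Decr1, 0.24 ± 0.10 (p = 0.017, adjusted p = 0.42), which gave -0.25 ± 0.07 in WT and -0.01 ± 0.07 in Tg. For Ech1 the difference was 0.25 ± 0.13 (adjusted p = 0.53), and for Acot1 0.62 ± 0.26 (adjusted p = 0.44). So no single member was shown to respond differently to Ang II in the 2 genotypes.

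**Figure D4:**
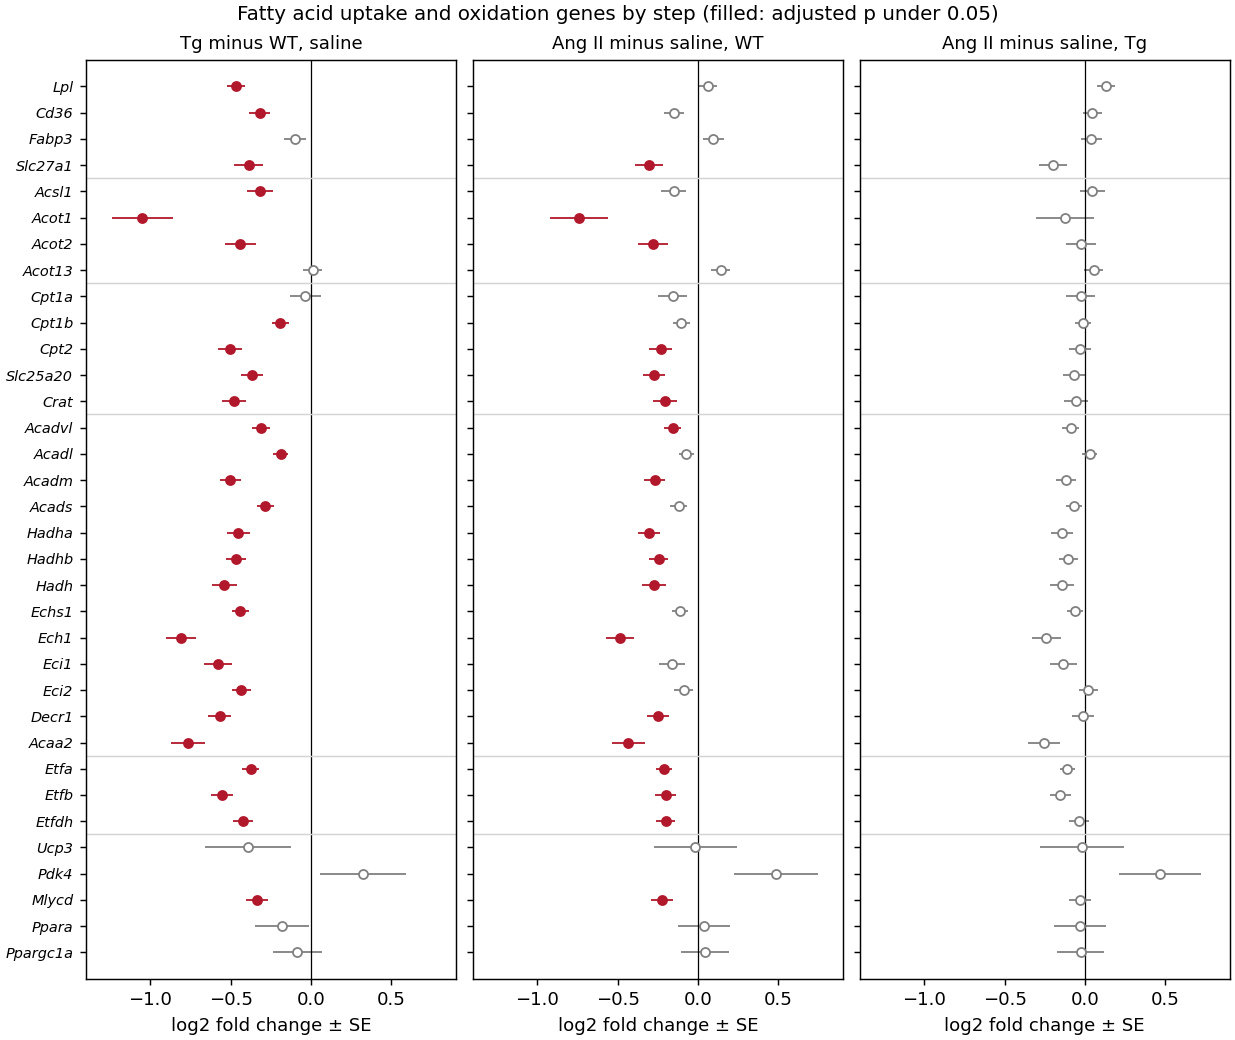
Log2 fold change ± SE (x axis) of each of the 34 members (y axis, in order of the steps, separated by grey lines) for Tg minus WT under saline, Ang II minus saline in WT and Ang II minus saline in Tg. Filled red points passed an adjusted p under 0.05. The left panel has 27 filled points, the middle 18 and the right 0, and all filled points lie below 0.

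Under Ang II the genotypes still differed. Of the members, 19 were lower in Tg Ang II than in WT Ang II and 0 higher, where 16.4% of all genes tested were lower and 16.4% higher, with a median of -0.28. By step, 12 of 13 genes of beta oxidation were lower (Acadl was not, -0.09 ± 0.05), 3 of 3 of electron transfer, 2 of 5 of the carnitine shuttle (Cpt2 and Crat), 2 of 4 of uptake (Lpl and Slc27a1), 0 of 4 of activation and 0 of 5 of regulation. Acaa2 (-0.58 ± 0.10), Ech1 (-0.56 ± 0.09), Eci1 (-0.55 ± 0.08) and Etfb (-0.51 ± 0.06, adjusted p = 3.6e-08) differed most. In the steps with 0 calls, 3 genes had an unadjusted p under 0.05, where 42.0% of all genes tested did: Acot1 (-0.43 ± 0.17, adjusted p = 0.053), Acot2 (-0.18 ± 0.09) and Mlycd (-0.14 ± 0.07). Acot1 passed without library 329 (-0.44, adjusted p = 0.048) and without library 847 (-0.52, adjusted p = 0.021), and 21 members were lower when both were left out.

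The falls under saline were present in each sex. In females alone 28 members fell, with a median of -0.49, where 13.5% of all genes were lower. In males alone 19 fell, with a median of -0.32, where 8.62% were lower. The difference of the genotype effect between the sexes was called for 0 members by edgeR, DESeq2 or limma-trend, and 0 had an unadjusted p under 0.05. Of all genes tested, edgeR and limma-trend called 0% and DESeq2 called 2 genes, and 3.56% had an unadjusted p under 0.05 by edgeR. For the Ang II effect pooled over genotypes, the difference between the sexes was also called for 0 members by these 3 tools (1 member with an unadjusted p under 0.05 by edgeR) and for 0% of all genes by edgeR, with which 4.22% of genes had an unadjusted p under 0.05. DESeq2 called 2 genes there and limma-trend 0. Averaged over groups, 1 member was higher in males and 0 lower, where 2.56% of all genes tested were higher and 1.86% lower. It was Acads (0.15 ± 0.04, adjusted p = 0.0085), at 63.7 ± 5.13 in male and 57.6 ± 5.41 in female WT saline hearts (SD, n = 6 and n = 5).

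Ang II in Tg hearts gave a median of 0.05 over the members in females alone and -0.15 in males alone, and in WT hearts -0.22 and -0.17. In males alone 2 members fell with Ang II in Tg, where 1.74% of all genes were lower. The difference of the Ang II effect between the genotypes thus had a median of 0.26 in females and -0.0044 in males. The sex difference in this quantity, a comparison added after these medians were seen, was called for 0 members by edgeR, DESeq2 or limma-trend and for 0% of all genes by edgeR, with which 10.5% of genes had an unadjusted p under 0.05. DESeq2 called 2 genes there and limma-trend 0. The quantity had a median of -0.27 (male minus female), and 10 members had an unadjusted p under 0.05. For Ech1, mean levels in females were 436 ± 26.7 in WT saline, 284 ± 63.1 in WT Ang II, 220 ± 30.2 in Tg saline and 213 ± 29.3 in Tg Ang II. In males they were 420 ± 41.3, 328 ± 60.1, 271 ± 32.5 and 201 ± 38.7 in the same order. The sex difference for Ech1 was -0.65 ± 0.25 (adjusted p = 0.44).

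Other genes of the fatty acid pathway were tested in the same fit under saline, where 20.2% of all genes tested were lower and 20.4% higher. Of 15 tested genes of peroxisomal oxidation, 8 fell and 2 rose, led by the bifunctional enzyme gene Ehhadh (-0.84 ± 0.12, adjusted p = 2.7e-07), Phyh, the phytanoyl-CoA hydroxylase (-0.30 ± 0.05), and Abcd3, a peroxisomal membrane transporter (-0.37 ± 0.06). Of 12 other acyl-CoA synthetases and thioesterases, 2 fell and 1 rose, of 8 other genes of uptake and carnitine transport 2 fell and 0 rose, and of 6 other PPARα targets 1 fell and 0 rose. Apart from peroxisomal oxidation, the numbers that fell lay near the share of all genes tested. The falls included Slc22a5, the carnitine transporter of the plasma membrane (-0.41 ± 0.10), Fabp4 (-0.29 ± 0.10) and the lipid droplet gene Plin5 (-0.41 ± 0.11). The median log2 fold changes of these 4 lists were -0.16, 0.02, -0.20 and -0.22.

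Of 15 other regulators, 6 fell and 0 rose under saline, where 20.2% of all genes tested were lower and 20.4% higher. Among those that fell were Nr2f2 (-0.39 ± 0.11), Lpin1, a phosphatidate phosphatase that also coactivates PPARα (-0.33 ± 0.10), and the corepressor gene Ncor1 (-0.16 ± 0.06). Rxra, the partner of PPARα, was lower with Ang II in both genotypes, with -0.17 ± 0.05 in WT (adjusted p = 0.010) and -0.22 ± 0.05 in Tg (adjusted p = 0.0039), and Ppargc1b was lower in WT (-0.38 ± 0.11). Acsl6, another acyl-CoA synthetase, was also lower with Ang II in both genotypes (-0.49 ± 0.08 and -0.38 ± 0.08). In ketone body use, 4 of 6 genes fell and 1 rose in Tg under saline. Bdh1, the enzyme that oxidises beta-hydroxybutyrate, fell there (-0.32 ± 0.09) and rose with Ang II in WT (0.37 ± 0.08, adjusted p = 0.0016) and in Tg (0.27 ± 0.08, adjusted p = 0.031).

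Genes of other mitochondrial functions and markers of the cell types moved with the genotype as well, and their part in the members' falls was not tested. Of 16 genes of mitochondrial import, structure and content, 9 fell and 1 rose in Tg under saline (median -0.17), and their summed level ranged from 925 to 1147 scaled FPKM in WT saline, 975 to 1082 in WT Ang II, 925 to 1042 in Tg saline and 875 to 1075 in Tg Ang II. Of 10 cardiomyocyte markers, 6 fell and 1 rose (median -0.19), with sums of 15427 to 17148, 14207 to 17773, 12600 to 17534 and 12220 to 15740 in the same order. Under saline the members' median was -0.41 and that of the endothelial markers described below was -0.45. In that comparison 20.2% of all genes tested were lower and 20.4% higher. With Ang II in WT, 3 of the 16 mitochondrial genes rose and 1 fell (median -0.06), and 1 of the 10 cardiomyocyte markers rose and 0 fell (median 0.02). Of all genes tested, 9.71% were higher and 8.87% lower there. In Tg against WT under Ang II, 8 of the 16 mitochondrial genes were lower and 1 higher (median -0.11), and 7 of the 10 cardiomyocyte markers were lower and 0 higher (median -0.18). Of all genes tested, 16.4% were lower and 16.4% higher in that comparison.

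Of 10 endothelial markers, 9 fell in Tg under saline (median -0.45), with summed levels of 179 to 264 in WT saline, 157 to 284 in WT Ang II, 126 to 174 in Tg saline and 125 to 195 in Tg Ang II. Cd36, Fabp4 and Gpihbp1 are known to be made in endothelial cells. All 10 fibroblast markers rose, with sums of 383 to 510, 303 to 497, 495 to 782 and 340 to 676, and 8 of 9 tested macrophage markers rose, with sums of 99.96 to 129, 82.8 to 233, 152 to 426 and 117 to 247. With Ang II in WT, 4 of 10 fibroblast markers rose and 1 fell, with the collagen genes Col1a1 (0.94 ± 0.18), Col1a2 (0.72 ± 0.15) and Col3a1 (0.90 ± 0.24) and the matrix gene Postn (1.83 ± 0.26) higher and Gsn lower (-0.25 ± 0.08). In the same comparison 1 macrophage marker rose (C1qb) and 1 endothelial marker fell (Kdr, -0.39 ± 0.12). In Tg against WT under Ang II, 9 of 10 endothelial markers were lower, 7 of 10 fibroblast markers higher and 6 of 9 macrophage markers higher, with none called the other way. Atrial and skeletal muscle markers were near 0, with sums of at most 2.50 and 1.17 in any heart, and 1 of 8 adipocyte markers was tested, with sums of at most 11.4. No marker was at 0 in every library. The load marker Nppa rose by 3.07 ± 0.28 in Tg under saline and by 2.05 ± 0.27 with Ang II in WT, and Myh7 by 2.06 ± 0.23 and 0.83 ± 0.22.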

How the data were processed

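Groups were taken from the sample labels. Per the submitters' processing notes, the authors used cutadapt 1.9, FastQC, HISAT2 2.0.4 and StringTie 1.3.4d. The counting tool, its strand setting and the genome build are not given in the sources used here. The deposited table held whole-number counts and FPKM for each gene and library, both made by the authors, and the counts were used as deposited. Of 35717 genes, 35599 were found in GENCODE M21 (GRCm38), 87.6% of them with identical start and end, as were 30 of the 34 members.

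Tested were the 11628 genes that reached an FPKM of 1 in 5 or more libraries (these held 98.9% to 99.3% of each library's counts). Median-of-ratios scaling and edgeR 4.0.16's quasi-likelihood test in R 4.3.3 were used, with 8 means (genotype, treatment and sex), the sexes weighted equally and two-sided p values. For levels, the authors' FPKM were divided by a median-of-ratios factor computed from FPKM itself (0.776 to 1.14). P values measure the spread between these libraries, taken as animals because each library number occurs once.

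Alternatives were TMM factors, library size only, DESeq2 1.42.0, limma-trend (limma 3.58.1) on log2(scaled FPKM + 1) and + 0.1, no FPKM minimum, a stricter one, no sex terms, a term for 10 runs of library numbers, each sex alone, and leaving out library 965 or both 329 and 847. Leaving out 329 or 847 alone, and the sex difference in the genotype difference of the Ang II effect, were added after seeing the data. In simulated counts for the genotype comparison under saline over 11628 genes, 60% of 1.25-fold and 89% of 1.5-fold changes were recovered. Only 100 genes were changed by each fold there, while 4720 genes were called in the data. The adjusted p threshold is therefore stricter in the simulation, and its rates need not hold for the data. All members are named. Beyond them, the rule named up to 3 genes with the smallest p for each other list of the pathway and comparison, and Nppa, Myh7 and Larp6. The members, lists and rules were chosen with earlier results of these data known. Molecular identifiers are not described, so the counting error given covers counting only.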

Additional observations from a re-analysis of the deposited data

How the results depend on the processing

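The falls under saline were called for 19 (males alone) to 28 members (females alone, or without library 965) in every alternative run, with 0 members higher. Scaling by library size alone moved the median of all genes under saline to 0.14 on the log2 scale and the members' median to -0.27, and it gave 4868 genes higher and 919 lower, against 2376 and 2344 with median-of-ratios scaling. For Ang II in WT this scaling gave 1987 and 477, against 1129 and 1031, and for Tg against WT under Ang II 3372 and 927, against 1905 and 1909. With it, 2 members rose with Ang II in WT (Acot13 and Lpl, where 17.1% of all genes were higher) and 1 in Tg (Lpl, where 3.79% were). The number that fell with Ang II in WT was 11 with no FPKM minimum (35717 genes tested), 5 in females alone and 2 in males alone (fewer samples), and 13 to 18 in the other alternatives. With a term for runs of library numbers, 1 member rose with Ang II in WT (Acot13, where 9.11% of genes were higher). In males alone, 2 members fell with Ang II in Tg, where 1.74% of genes were lower, and the cause was not tested. DESeq2, or leaving out library 329 with or without 847, called 2 members higher in males (Acads and Acadm), where 2.22% to 3.28% of genes were higher. The Cpt1a to Cpt1b ratio under Ang II differed by 0.18 without libraries 329 and 847 (adjusted p = 0.080), and r of Ech1 with Nppa in Tg saline was -0.78 on FPKM as deposited (adjusted p = 0.037). No member's value that passed as reported took the other sign under an alternative. Fabp3 under saline, which did not pass as reported, was called lower without library 965 and in females alone and had an estimate above 0 in males alone and with library size only. No paired analysis was possible because each library number occurs once. Depth limits little here, since the least abundant member had a mean of 701 counts, and the spread between hearts limits Ppara, Ppargc1a, Pdk4 and Ucp3, whose SE was 0.15 to 0.27 under saline.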
